A study of Brassica napus and Orychophragmus violaceus with 4 samples.

Results

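The enzymes that build hydroxycinnamoyl esters, methylate them and lead them to sinapate esters were followed in the petals of 4 plant materials. The members were all *B. rapa* genes (Bra identifiers) that the deposited read sheet matches to one of 10 Arabidopsis genes: *HCT* (AT5G48930), *C3H1* (AT2G40890), *CSE* (AT1G52760), *CCoAOMT1* (AT4G34050), *COMT1* (AT5G54160), *F5H1* (AT4G36220), *F5H2* (AT5G04330), *REF1* (AT3G24503), *UGT84A2* (AT3G21560) and *SNG1* (AT2G22990). The 10 genes were chosen with earlier results of these data known. The matching rule itself uses no measured value, and it found 22 of the 37441 *B. rapa* genes in the sheet. They cover 8 of the 10 Arabidopsis genes, and *F5H2* and *SNG1*, for which no Bra gene carried the match, were not analysed here. Each *B. rapa* gene is called a copy of its Arabidopsis gene, and 18 of the 22 copies had reads in every library.

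M4 is *B. napus* to which 1 pair of *O. violaceus* chromosomes was added (a disomic addition line), and red covers the base of its yellow petals. H3 is the *B. napus* cultivar Huashuang 3, the yellow-flowered donor of M4. OvP is wild-type *O. violaceus* with purple petals, and OvW is its natural white-petalled mutant, with no lesion named in its label or in the methods. All plants grew in 1 greenhouse season, petals of half-open flowers were used, and each material had 1 library, so no difference below has a replicate check, and a line or mutant cannot be told apart from the plants sampled.

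In the phenylpropanoid pathway, *p*-coumaroyl-CoA is joined to shikimate by *HCT* (hydroxycinnamoyl transferase), hydroxylated on that ester by *C3H1* (*CYP98A3*) and freed as caffeate by *CSE* (caffeoyl shikimate esterase). *CCoAOMT1* methylates caffeoyl-CoA, *F5H1* (*FAH1*) adds the hydroxyl group that precedes the sinapyl pattern, and *COMT1* (*OMT1*) methylates that product and, in Arabidopsis, flavonols as well. *REF1* oxidizes the aldehydes to ferulate and sinapate, *UGT84A2* makes sinapoylglucose, and in the Brassicaceae sinapate esters serve as ultraviolet screens and as donors of the acyl groups that decorate anthocyanins.

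M4 gave 15507389 counted reads, H3 16447021, OvP 1850787 and OvW 2040729. The reads of every material, from both *B. napus* subgenomes as well as from *O. violaceus*, were aligned to the *B. rapa* genome. Levels of the *O. violaceus* libraries therefore also depend on how well their reads matched that genome, and near-identical copies may have shared or exchanged reads. In M4, reads from *B. napus* and from the added *O. violaceus* chromosomes are counted together on each copy and cannot be told apart. The petal identity list (*AP3*, *PI*, *SEP1*, *SEP2* and *SEP3*) had reads for 5 of 5 genes in every library, and their summed RPKM (reads scaled to gene length and library size) was 6144 in M4, 7053 in H3, 7904 for OvP and 11908 for OvW. In each pair 1 of its 12 copies rose and 3 fell, by the tests described next. The median log2 fold was -0.69 for M4 over H3 and -0.68 for OvP over OvW. Of all Bra genes, 16.2% were higher and 12.7% lower in M4 over H3, and 5.60% and 5.76% in OvP over OvW. The read column taken for M4 is named by a code alone, and it was checked against the labelled RPKM columns: over 14978 genes with at least 50 reads, the M4 to H3 ratio of RPKM was 1.05 times the ratio of reads in the median, and between 1.04 and 1.06 times in the central 95% of genes.

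M4 was compared with H3 and OvP with OvW, gene by gene, by the exact binomial test of edgeR after TMM scaling, on single copies and on reads summed over the copies of an Arabidopsis gene. A gene was called higher or lower where p was at most 0.01 and the fold was 2 or above, or 0.5 or below. Such a call compares 2 libraries, not 2 conditions, and the 95% exact binomial intervals after the folds cover counting error only. In these petal libraries, fewer cells of a type and less RNA per cell cannot be told apart. With TMM the median log2 fold of M4 over H3 was 0.05 over 25546 *B. rapa* genes with 10 or more reads in the pair, and with total reads it was 0.43, so folds of M4 over H3 are relative to the TMM median. RPKM ratios lie close to the total-read scaling.

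Between M4 and H3, *HCT* rose and *F5H1* and *REF1* fell, and the other 5 summed genes were not called. That is 3 of 8 genes, against 30.4% of the 19245 Arabidopsis gene sums tested (16.6% higher and 13.7% lower). Of the single copies, 2 rose, 5 fell and 14 were not called, so that 7 of the 21 tested were called, against 29.0% of 34286 Bra genes (16.2% higher and 12.7% lower). The split turned with the scaling, as it did over all genes. With total reads, 2 gene sums rose and 2 fell, where 24.2% of all gene sums were higher and 8.23% lower. Of the copies 5 then rose and 3 fell, where 22.9% of all Bra genes were higher and 7.98% lower. The median log2 fold over the 19 copies with 10 or more reads was -0.21 with TMM and 0.17 with total reads, in each case below the all-gene median of that scaling.

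Between OvP and OvW, *HCT*, *CSE*, *CCoAOMT1*, *COMT1* and *F5H1* fell, and *C3H1*, *REF1* and *UGT84A2* were not called. These 5 of 8 genes compare with 12.7% of 19096 Arabidopsis gene sums called, 6.07% higher and 6.63% lower. Of the 22 copies tested, 0 rose, 6 fell and 16 were not called, against 11.4% of 33743 Bra genes called, 5.60% higher and 5.76% lower. The median log2 fold was -0.67 over the 18 copies with 10 or more reads, against 0.00 over 19141 Bra genes and -0.68 over the 12 copies of petal identity genes.

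**Figure D1:**
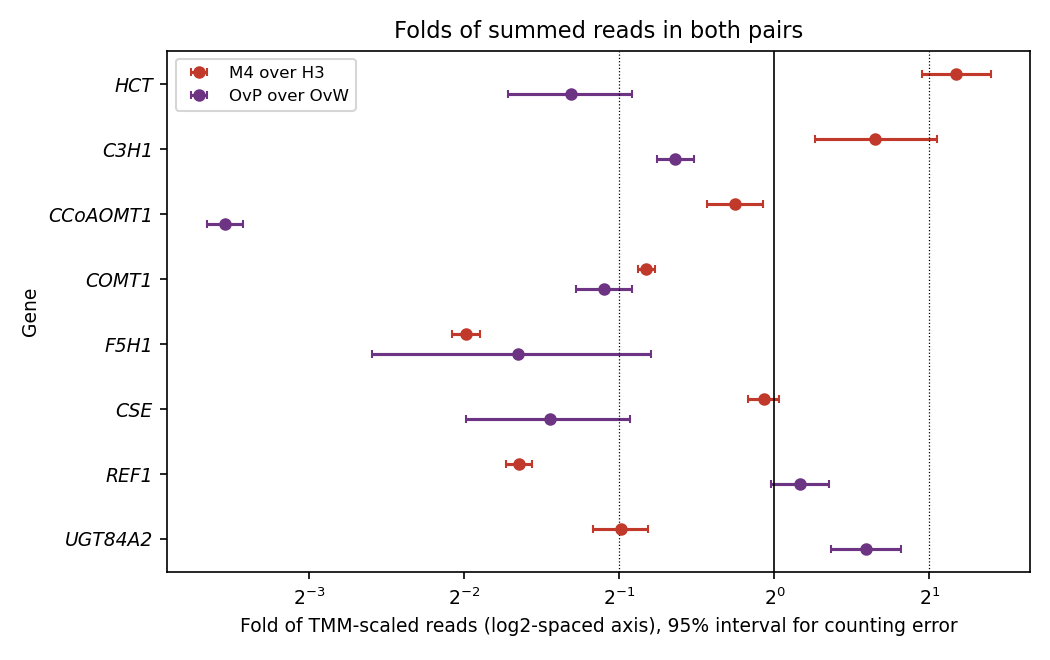
Fold of TMM-scaled summed reads (log2-spaced horizontal axis) for each of the 8 genes, M4 over H3 in red and OvP over OvW in purple; bars are 95% intervals for counting error, dotted lines mark folds of 0.5 and 2. *HCT* lies at 2.25 for M4 over H3 and at 0.403 for OvP over OvW, and *CCoAOMT1* lies farthest to the left, at 0.0858 for OvP over OvW.

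Marker lists of other tissues were read beside these folds. Among all Bra genes, 16.2% were called higher and 12.7% lower in M4 over H3. In OvP over OvW 5.60% were called higher and 5.76% lower. For OvP and OvW, 8 of 15 tested copies of green tissue markers (small Rubisco subunits, light-harvesting and photosystem proteins) fell and 0 rose, and their summed RPKM was 1382 in OvP and 4111 in OvW, with *RBCS1A* at 0 in OvW. Of 16 copies of xylem and secondary wall markers, 5 rose and 1 fell, and their summed RPKM was 909 in OvP and 361 in OvW, with no marker at 0. For M4 and H3, 6 of 14 green tissue copies fell and 0 rose (450 in M4 and 795 in H3, *RBCS1A* at 0 in both), and 3 of 17 xylem copies rose and 0 fell (205 in M4 and 144 in H3, *NST2* at 0 in both and *MYB26* at 0 in H3). Tapetum and pollen markers had 1 copy higher and 4 lower of 32 between M4 and H3, with summed RPKM of 26.0 in M4 and 34.9 in H3 (*GRP19* at 0 in both). Between OvP and OvW 0 of 31 tapetum and pollen copies were called, with sums of 498 in OvP and 628 in OvW (*GRP19* and *CYP704B1* at 0 in OvP). Carpel markers summed to 9.22 RPKM in M4 and 21.1 in H3, and to 17.0 in OvP and 13.2 in OvW, with *INO* at 0 in M4, H3 and OvP and *SHP2* at 0 in OvP and OvW, and 1 of 8 copies fell in M4 and 0 of 9 were called in OvP. Between M4 and H3, the xylem copies called higher and the tapetum and pollen copies called lower were near the all-gene shares. The part of these tissues in the folds of the enzyme genes was not tested.

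*HCT*, which opens the shikimate ester route, went in opposite directions in the 2 pairs. Its summed reads were 634 in M4 and 229 in H3, and 74 in OvP and 191 in OvW. M4 was higher than H3 at 2.25 times (1.93 to 2.63, p = 1.6e-28 in the exact binomial test), and OvP was lower than OvW at 0.403 times (0.304 to 0.529, p = 2.9e-12). In summed RPKM, M4 at 30.8 and OvP at 31.0 lay close together, with H3 at 10.7 and OvW at 72.4 on either side. Levels across species depend also on mapping to *B. rapa* and have no test.

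Only 1 of the 2 copies of *HCT* was called higher in M4. Bra033526 on chromosome A01 had 256 reads in M4 against 24 in H3, a fold of 8.67 (5.70 to 13.8), while it held only 10 reads in OvP and 9 in OvW, a fold of 1.15 that was not called. Bra036480 on A07 had 378 reads in M4 against 205 in H3, a fold of 1.50 that fell short of the call. In *O. violaceus* it was this second copy that fell, with 64 reads in OvP and 182 in OvW, a fold of 0.365 (0.270 to 0.488). Judged by Bra036480 alone, which had more reads than the other copy in every library, *HCT* would not be called between M4 and H3.

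*C3H1* encodes the P450 enzyme that acts on the shikimate ester made by HCT. Its summed reads were 162 in M4 and 84 in H3, and 915 in OvP and 1480 in OvW, so that neither pair was called, at 1.57 times in M4 (1.20 to 2.06) and 0.642 times in OvP (0.591 to 0.698). With total reads in place of TMM the fold of M4 over H3 was 2.05 and was called. The contrast between species was far wider: 325 RPKM in OvP and 477 in OvW, against 6.68 in M4 and 3.34 in H3, that is 48.6 times M4 in OvP and 143 times H3 in OvW. These ratios across species have no test. *C3H1* was thus the least abundant of the 8 genes per length in both *B. napus* libraries and the second most abundant in both *O. violaceus* libraries. RPKM is scaled to mapped reads, and the paper mapped a far smaller part of *O. violaceus* reads than of *B. napus* reads. How much of the contrast comes from mapping was not tested.

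All 3 copies of *C3H1* were low in *B. napus* petals and moved alike in *O. violaceus*. Bra016964 on A04 had 71 reads in M4 against 34 in H3, and 651 in OvP and 1069 in OvW (0.633 times, not called). Bra000211 on A03 had 78 reads in M4 against 48 in H3, and 156 in OvP and 243 in OvW (0.667 times, not called). Bra004591 on A05 had 13 reads in M4 against 2 in H3, a fold of 5.28 whose interval of 1.20 to 48.2 is wide and which was not called, and it had 108 in OvP and 168 in OvW (0.668 times, not called). The folds of the 3 copies in OvP over OvW thus lay between 0.633 and 0.668. With total reads Bra016964 at 2.21 times and Bra004591 at 6.89 times passed as higher in M4 over H3.

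*CSE*, the esterase that releases caffeate, was among the most abundant members in *B. napus*. It had 1762 reads in M4 against 1501 in H3, a fold of 0.954 (0.890 to 1.02) with TMM and 1.25 with total reads, so its direction depended on the scaling and neither value was called. It fell in OvP, with 42 reads in OvP and 119 in OvW, a fold of 0.367 (0.252 to 0.525). Bra018986 on A06 gave 99.0% of the reads in M4 and 98.9% in H3, and it was this copy that fell in OvP, with 34 reads in OvP and 101 in OvW (0.350 times). Bra030364 on A05 had 17 reads in M4 against 16 in H3, and 8 in OvP and 18 in OvW, and was called in neither pair.

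*CCoAOMT1*, the methyltransferase of caffeoyl-CoA, showed the widest fold of the 8 genes. Its summed reads were 629 in OvP and 7617 in OvW, a fold of 0.0858 (0.0790 to 0.0931), and in RPKM 429 in OvP and 4723 in OvW. The gene made up 79.4% of the summed RPKM of the members in OvW, against 32.8% in OvP, 7.29% in M4 and 4.63% in H3. In *B. napus* the reads were nearly level, with 518 in M4 and 502 in H3, which is 0.839 times (0.740 to 0.950) with TMM and 1.09 times with total reads, and not called with either. Its call between OvP and OvW was the only one among the 8 summed genes in either pair that held when the test assumed a biological coefficient of variation of 0.4.

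Both copies of *CCoAOMT1* fell in OvP. Bra017624 on A03 had 531 reads in OvP and 5479 in OvW (0.101 times, 0.0919 to 0.110), and with 3397 RPKM in OvW it ranked 20 among all *B. rapa* genes of that library, against 399 in OvP. Bra034600 on A08 had 98 reads in OvP and 2138 in OvW (0.0476 times, 0.0385 to 0.0583) and ranked 2424 in OvP and 76 in OvW. In M4 and H3 the copies had 212 and 233 reads for Bra017624, and 306 and 269 for Bra034600, and neither was called.

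*COMT1*, the methyltransferase of the sinapyl branch, was the most abundant member per length in both *B. napus* libraries, at 240 RPKM in M4 and 328 in H3, or 42.2% and 39.8% of the members' sum. Its summed reads were 4166 in M4 and 6001 in H3, a fold of 0.564 (0.542 to 0.587) that lies below 1 beyond counting error but above the threshold of 0.5. In *O. violaceus* it fell, with 365 reads in OvP and 811 in OvW, a fold of 0.468 (0.412 to 0.530).

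The 6 copies of *COMT1* were not used alike. Bra003007 on A10 fell in M4, with 1275 reads in M4 and 2498 in H3 (0.415 times, 0.387 to 0.444), a call that was lost with total reads at 0.541 times. Bra003009, on the same chromosome, had 1849 reads in M4 against 2230 in H3 (0.674 times, not called) but only 3 in OvP and 0 in OvW. Bra019031 on A03 showed the reverse, with 0 reads in M4 and in H3 and 69 in OvP and 96 in OvW (0.747 times, not called). Bra029041 on A03 was the copy that fell in OvP, with 197 reads in OvP and 576 in OvW (0.355 times, 0.301 to 0.419), and it had 1031 in M4 and 1254 in H3 (0.668 times, not called). Bra022700 on A02 and Bra026320 on A01 had at most 18 reads in any library and were not called.

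*F5H1*, the hydroxylase at the entry of the sinapyl branch, fell in both pairs. It had 1348 reads in M4 against 4349 in H3, a fold of 0.252 (0.237 to 0.268), and 15 in OvP and 49 in OvW, a fold of 0.318 (0.166 to 0.577, p = 4.4e-05 in the exact binomial test). In RPKM it stood at 53.9 in M4 and 165 in H3, where it was second among the members, and at 5.14 in OvP and 15.6 in OvW, where it was last. Between the pairs, no difference of the folds was detectable at this depth: the ratio was 0.792, with an interval of 0.435 to 1.53 (adjusted p = 0.64 in the conditional exact test).

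Bra017752 on A03 gave 93.4% of the *F5H1* reads in M4 and 96.5% in H3 and fell to 1259 reads in M4, against 4196 in H3 (0.244 times, 0.229 to 0.260). In *O. violaceus* it had 13 reads in OvP and 29 in OvW (0.466 times, not called). Bra011671 on A01 fell in both pairs, with 57 reads in M4 and 140 in H3 (0.331 times, 0.239 to 0.453) and with 1 in OvP and 17 in OvW (0.0611 times, 0.00146 to 0.390). Bra033594 on A06 had 30 reads in M4 against 13 in H3 (1.88 times, not called with TMM and called at 2.45 times with total reads) and 1 in OvP and 2 in OvW. Bra024479 on A06 had 2 reads in M4 and 1 in OvW and none in the others, which allows no fold.

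*REF1*, the aldehyde dehydrogenase that makes ferulate and sinapate, had a single copy, Bra001952 on A03, so its values are free of any choice of copy. It fell to 1623 reads in M4, against 4137 in H3, a fold of 0.319 (0.301 to 0.338). In *O. violaceus* it was not called, with 492 reads in OvP and 456 in OvW, a fold of 1.12 (0.985 to 1.28). Per length, M4 had the lowest level, at 66.9 RPKM in M4, against 162 in H3, 173 in OvP and 146 in OvW. Across species these levels also depend on mapping to *B. rapa* and have no test.

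*UGT84A2*, the glucosyltransferase that makes sinapoylglucose, was called in neither pair as a sum, with 424 reads in M4 and 685 in H3 (0.503 times, 0.445 to 0.569) and 398 in OvP and 275 in OvW (1.50 times, 1.29 to 1.76). Its copies moved apart in M4. Bra023872 on A01 had 84 reads in M4 and only 2 in H3, a fold of 34.1 with a wide interval of 9.16 to 286, and Bra031290 on A05 fell to 340 reads in M4, against 683 in H3 (0.405 times, 0.354 to 0.461), or 0.528 times and not called with total reads. In the *O. violaceus* libraries reads aligned to both *B. rapa* copies. Bra023872 had 169 in OvP and 109 in OvW (1.61 times). Bra031290 had 229 in OvP and 166 in OvW (1.43 times), and neither was called. Whether the M4 reads on Bra023872 came from *B. napus* or from the added *O. violaceus* chromosomes was not tested.

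**Figure D2:**
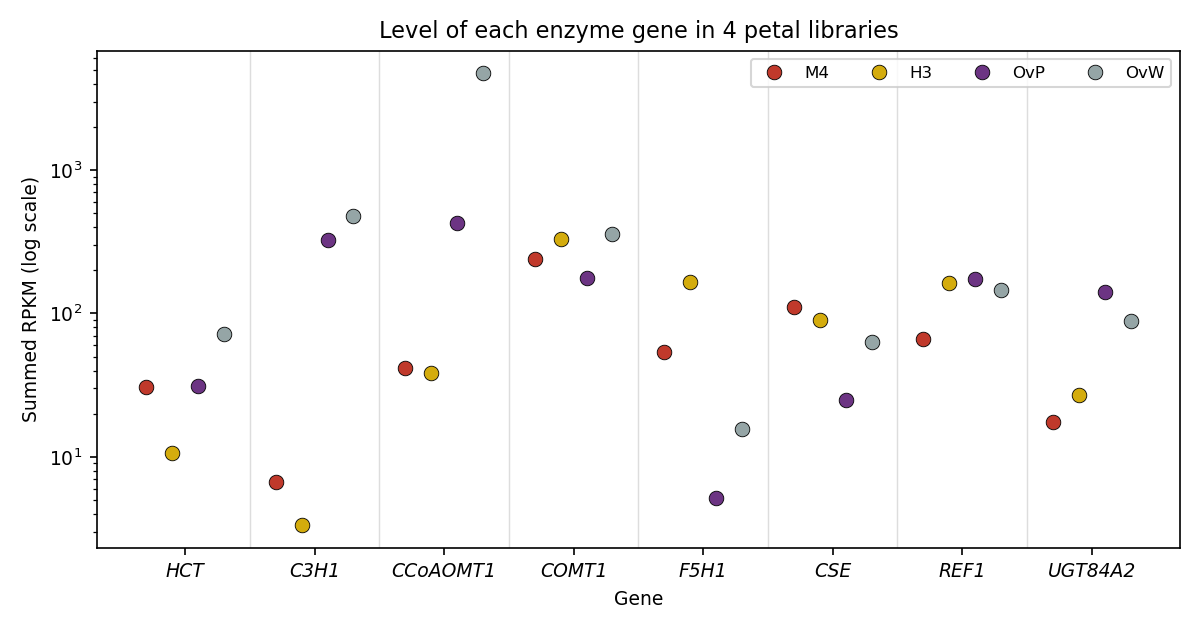
Summed RPKM over the copies of each gene (log-scaled vertical axis) in the single libraries of M4, H3, OvP and OvW, 1 point per library. *C3H1* and *CCoAOMT1* lie highest in the *O. violaceus* libraries, with 4723 RPKM for *CCoAOMT1* in OvW, and *F5H1* lies highest in H3 at 165 RPKM.

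The order of levels per length was the same in OvP and OvW: *CCoAOMT1*, *C3H1*, *COMT1*, *REF1*, *UGT84A2*, *HCT*, *CSE* and *F5H1*. In M4 it ran *COMT1*, *CSE*, *REF1*, *F5H1*, *CCoAOMT1*, *HCT*, *UGT84A2* and *C3H1*. In H3 *F5H1* came second and *CSE* followed *REF1*, and *UGT84A2* stood before *HCT*, with the other 4 genes in the same places as in M4. With 1 library each, it cannot be said which neighbours in these orders differ beyond the spread between plants. The members together took 0.0686% of the counted reads in M4 and 0.106% in H3, and 0.158% in OvP and 0.539% in OvW.

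The share of a gene's reads that each copy took was compared within each pair by Fisher's exact test, called at a Benjamini-Hochberg adjusted p of 0.01 or less and a difference of at least 10 percentage points. Between M4 and H3, 5 of 21 copies of 3 genes were called, against 22.0% of 20866 copies. The *HCT* copy Bra033526 took 40.4% of the reads in M4 (36.5 to 44.3) and 10.5% in H3 (6.83 to 15.2), a difference of 29.9 points (adjusted p = 1.3e-17). The *UGT84A2* copy Bra023872 took 19.8% in M4 (16.1 to 23.9) and 0.292% in H3 (0.0354 to 1.05), a difference of 19.5 points (adjusted p = 1.1e-33). For both genes the other copy is the mirror image. The *COMT1* copy Bra003007 took 30.6% in M4 and 41.6% in H3, 11.0 points less (adjusted p = 1.1e-28).

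Between OvP and OvW, 3 of 21 copies of 2 genes were called, against 7.01% of 15913 copies. The *CCoAOMT1* copy Bra017624 took 84.4% of the reads in OvP (81.3 to 87.2) and 71.9% in OvW (70.9 to 72.9), with Bra034600 as its mirror image (adjusted p = 7.7e-11). The *COMT1* copy Bra029041 took 54.0% in OvP (48.7 to 59.2) and 71.0% in OvW (67.8 to 74.1), 17.1 points less (adjusted p = 7.5e-07). The shares of *C3H1* were nearly equal in OvP and OvW, with Bra016964 at 71.1% in OvP and 72.2% in OvW (adjusted p = 0.91), and those of *UGT84A2* were not called, with Bra023872 at 42.5% in OvP and 39.6% in OvW (adjusted p = 0.84).

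**Figure D3:**
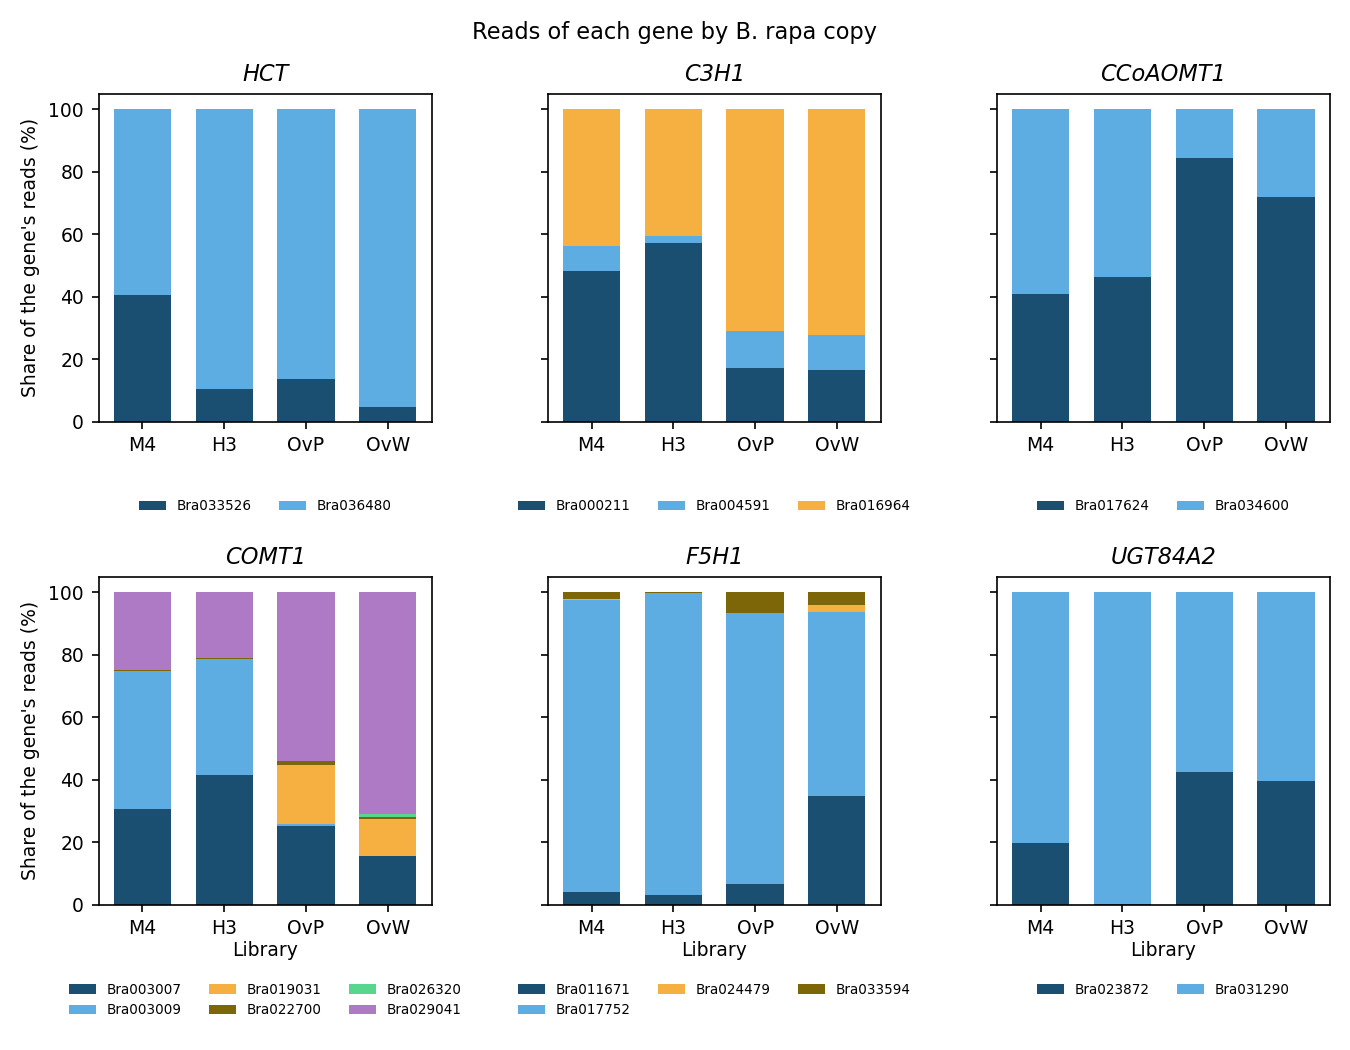
Share of each gene's reads (vertical axis, percent) by *B. rapa* copy (colours) in the libraries of M4, H3, OvP and OvW, for the 6 genes with several copies other than *CSE*. Bra023872 of *UGT84A2* takes 19.8% in M4 and 0.292% in H3, with 42.5% in OvP and 39.6% in OvW, while Bra033526 of *HCT* takes 40.4% in M4 and 10.5% in H3.

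The 2 pairs share no library. Whether their folds differed was tested on the reads by a conditional exact test, called at a Benjamini-Hochberg adjusted p of 0.01 or less and a ratio of folds of at least 2 or at most 0.5. For 6 of 8 gene sums the fold of M4 over H3 differed from that of OvP over OvW, against 19.1% of 18386 gene sums. The ratio of folds was above 1 for *HCT*, *C3H1*, *CSE* and *CCoAOMT1*, between 2.44 for *C3H1* and 9.77 for *CCoAOMT1*. It was below 1 for *REF1* at 0.284 (0.247 to 0.328) and *UGT84A2* at 0.334 (0.274 to 0.409), but the copies of *UGT84A2* went opposite ways, with 21.2 for Bra023872 and 0.282 for Bra031290. *COMT1* at 1.21 and *F5H1* at 0.792, which both act on the sinapyl branch, were not called. Of the single copies, 9 of 21 were called, against 16.4% of 30588 Bra genes.

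Methylation by *CCoAOMT1* and *COMT1* uses S-adenosylmethionine, and most copies of the genes that make and recycle it rose in M4. This list, like the others, was chosen with earlier results of these data known. The all-gene shares beside its counts are therefore a description only. Of 21 copies in this list 16 rose, 5 were not called and 0 fell, against 16.2% higher and 12.7% lower among all Bra genes, with a median log2 fold of 1.82 over 20 copies, while neither methyltransferase was called between M4 and H3 as a sum. Bra028345, a copy of *SAHH2* (S-adenosylhomocysteine hydrolase), had 10633 reads in M4 against 298 in H3 (29.0 times, 25.8 to 32.6). Bra034087, a copy of *ADK1* (adenosine kinase), had 4474 reads in M4 against 198 in H3 (18.4 times). Bra023645, a copy of *MS1* (methionine synthase), had 9093 in M4 and 662 in H3 (11.2 times). With total reads 18 of the 21 copies rose, where 22.9% of all Bra genes were higher. When a biological coefficient of variation of 0.4 was assumed 6 rose, where 4.48% of all Bra genes were higher.

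In OvP 3 of the 21 copies rose and 0 fell, against 5.60% higher and 5.76% lower among all Bra genes, and with a biological coefficient of variation of 0.4 assumed 0 rose. The 3 were copies of *SAHH2*: Bra028345 with 4882 reads in OvP and 2482 in OvW (2.04 times), Bra001921 with 512 in OvP and 215 in OvW (2.47 times), and Bra014984 with 629 in OvP and 303 in OvW (2.16 times). The median log2 fold over 20 copies was 0.37. H3 had the lowest summed RPKM of the 4 libraries for each of the 9 genes of the list with a copy in the sheet, with values for *SAHH2* of 456 in M4 and 12.8 in H3, and of 2188 in OvP and 992 in OvW. For *MAT3* this order depends on the scaling, as M4 over H3 was 0.98 times with TMM. Across species these levels also depend on mapping to *B. rapa* and have no test.

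**Figure D4:**
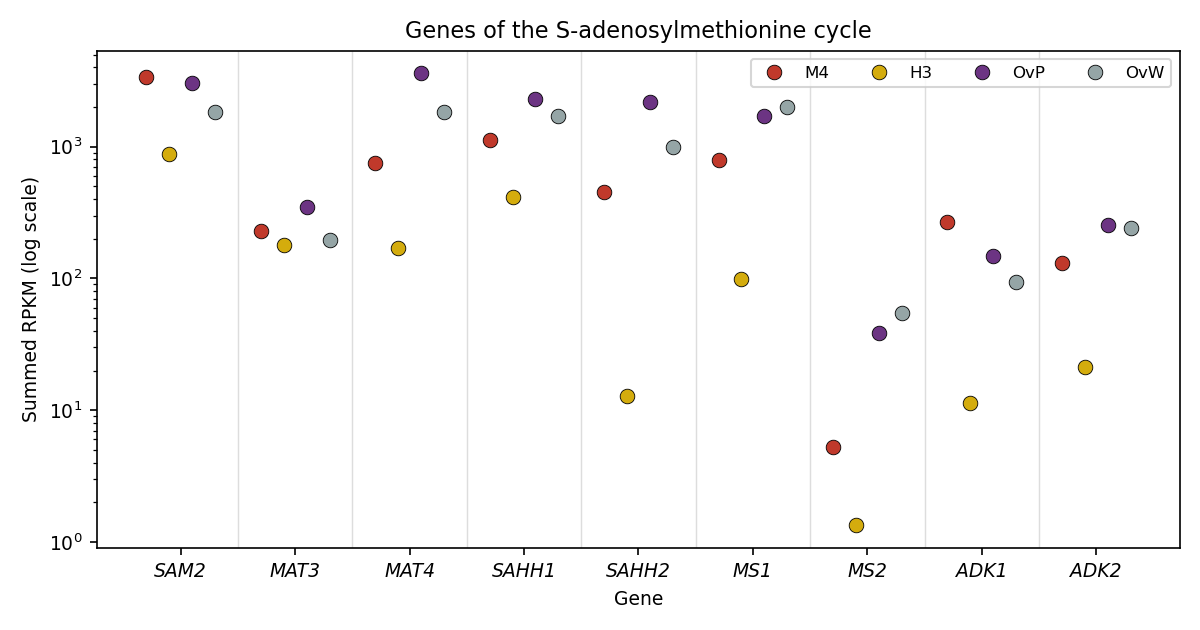
Summed RPKM (log-scaled vertical axis) of the genes of the S-adenosylmethionine cycle in M4, H3, OvP and OvW, 1 point per library. M4 lies above H3 for the 9 genes shown, narrowly so for *MAT3* at 229 against 180 RPKM (0.98 times with TMM) and most widely for *SAHH2* at 456 against 12.8 RPKM.

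The general phenylpropanoid genes supply the substrate of HCT. In M4 3 of their copies rose and 8 fell of 26 tested, where 16.2% of all Bra genes were higher and 12.7% lower, and in OvP 1 rose and 10 fell of 27, where 5.60% were higher and 5.76% lower. Assuming a biological coefficient of variation of 0.4 left 2 copies lower in M4 and 3 lower in OvP, and none higher. Bra029831, a copy of *PAL4* (phenylalanine ammonia lyase), fell in both pairs, with 2597 reads in M4 and 12626 in H3 (0.167 times), and 15 in OvP and 89 in OvW (0.175 times). Bra005221, a copy of *PAL1*, had 550 reads in OvP and 2899 in OvW (0.197 times), and Bra006985, a copy of *PAL2*, had 217 in OvP and 898 in OvW (0.251 times). Among the exceptions, the *C4H* (cinnamate hydroxylase) copy Bra021637 had 44 reads in OvP and 13 in OvW (3.52 times), and the *C4H* copy Bra022803 had 119 in M4 and 44 in H3 (2.20 times).

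Downstream towards lignin, copies of the reductase genes *CCR2* and *CAD4* fell in OvP while copies of laccase genes rose. Of 23 copies of monolignol reduction and polymerization genes 7 rose and 3 fell, against 5.60% and 5.76% of all Bra genes, but 0 rose and 3 fell when a biological coefficient of variation of 0.4 was assumed. Both copies of *CCR2* (cinnamoyl-CoA reductase) had 0 reads in OvP, against 309 in OvW for Bra035150 and 165 for Bra008438. With OvP set to a floor of 3 reads they were 99.1-fold and 52.9-fold lower. The upper interval limits of the folds were 0.0125 and 0.0235. The *CAD4* (cinnamyl alcohol dehydrogenase) copy Bra022425 had 125 reads in OvP and 2059 in OvW (0.0631 times, 0.0522 to 0.0756). *LAC4* and *LAC17* encode laccases that polymerize monolignols, and Bra005140 of *LAC4* had 40 reads in OvP and 8 in OvW (5.20 times) and Bra006683 of *LAC17* 62 in OvP and 13 in OvW (4.96 times). The xylem marker sum was also higher in OvP, as given above, and its part in the laccase values was not tested. In M4 0 copies rose and 3 of 21 fell, a share near the 12.7% of all Bra genes called lower. They included the peroxidase copy Bra001986 of *PRX64*, with 463 reads in M4 and 1552 in H3 (0.242 times).

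Among the other glycosyl and acyl transferases of sinapate and hydroxycinnamates, 6 copies rose and 1 fell of 22 between M4 and H3, against 16.2% and 12.7% of all Bra genes, and 1 rose and 2 fell of 23 between OvP and OvW, against 5.60% and 5.76%. With a biological coefficient of variation of 0.2 assumed, 1 copy was called between OvP and OvW, and it was lower. Bra030550 is a copy of *3AT1*, which in Arabidopsis adds the coumaroyl group to anthocyanins. It had 82 reads in M4 against 0 in H3, and 80 in OvP and 37 in OvW (2.25 times, 1.50 to 3.41). Whether its M4 reads came from *B. napus* or from the added *O. violaceus* chromosomes was not tested. With H3 set to a floor of 3 reads it was 22.2-fold higher in M4, with a lower interval limit of 17.7. Bra032189, a copy of the serine carboxypeptidase-like gene *SCPL13*, had 252 reads in M4 against 12 in H3 (17.1 times, 9.60 to 33.5). Bra012784, a copy of *UGT84A1*, whose product glucosylates hydroxycinnamates, had 9 reads in OvP and 530 in OvW (0.0176 times, 0.00802 to 0.0338), while *UGT84A2* was not called.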

How the data were processed

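Petal RNA was sequenced by the authors as directional poly(A) libraries with 100-nt paired ends, 1 library per material. The authors aligned the filtered reads to *B. rapa* with TopHat and set a limit of 2 mismatches. DESeq, Cufflinks, Cuffdiff and edgeR are also named, without versions. The thresholds used here for p and fold are those that the paper set for its own edgeR calls. Whole-number counts of reads for every *B. rapa* gene were deposited, and so were RPKM values, scaled by the authors to gene length and mapped reads, whose implied gene lengths differ from the length column of the sheet. For the counting tool, its strand setting and the genome version, the sources used here give nothing. Poorly matching *O. violaceus* reads were lost in mapping, which lowers counts gene by gene. Because RPKM is scaled to mapped reads, this loss can also raise the RPKM of genes whose reads matched well. Of 37441 genes, 35645 carried an Arabidopsis match. The M4 column was assigned by elimination and by the check given with the samples.

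Every gene with a minimum of 1 read over the pair entered binomTest of edgeR 4.0.16 (R 4.3.3) on counts at dispersion 0 after TMM scaling, and medians of log2 folds used genes with at least 10 reads and a prior count of 0.5. Shares and ratios of folds used SciPy 1.17.1, with figures from matplotlib 3.10.9. Tests were run over the whole sheet and checked on simulated counts. Those counts held counting error only, so the check does not cover the spread between plants. Folds against 0 reads used a floor of 3 reads in that library, a CPM of 0.194 for M4, 0.182 for H3, 1.62 for OvP and 1.47 for OvW. Alternatives were total reads, DESeq2 1.42.0 size factors, minimums of 10 and 50 reads, coefficients of variation of 0.1, 0.2 and 0.4, adjusted p, a prior count of 2, folds of RPKM and the copy with the most reads.

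All member copies are named; from each other list, the up to 3 highest and 3 lowest called copies of each pair with at least 10 reads, ranked by the interval bound nearest to 1, could be named. The members and lists were chosen with earlier results of these data known. No sequences were printed, because no sequence table for these genes was at hand.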

Additional observations from a re-analysis of the deposited data

Results flagged for a closer look

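The difference between the fold of M4 over H3 and that of OvP over OvW was past the threshold for 6 of 8 gene sums, by the conditional exact test of the reads. The ratio of the folds was 5.59 for *HCT* (4.07 to 7.71), 2.44 for *C3H1* (1.84 to 3.26), 9.77 for *CCoAOMT1* (8.41 to 11.4), 2.60 for *CSE* (1.80 to 3.82), 0.284 for *REF1* (0.247 to 0.328) and 0.334 for *UGT84A2* (0.274 to 0.409). These differences rest on 1 library per material, and their intervals hold counting error only.

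Of the copies, 9 of 21 passed the same test. The ratio was 21.2 for Bra023872 of *UGT84A2*, against 0.282 for the other copy of that gene, Bra031290. It was 7.51 for Bra033526 and 4.10 for Bra036480 of *HCT*, and 7.34 for Bra017624 and 19.4 for Bra034600 of *CCoAOMT1*. It was 2.68 for Bra016964 of *C3H1*, 2.73 for Bra018986 of *CSE* and 0.284 for Bra001952, the single copy of *REF1*. In Bra023872 and Bra033526 the value rests on low counts, with 2 reads in H3 for Bra023872 and 10 reads in OvP and 9 in OvW for Bra033526.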

How the results depend on the processing

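With a biological coefficient of variation of 0.4 assumed, 0 gene sums were called between M4 and H3 (3 in the exact binomial test of edgeR, which assumes none) and 2 copies (against 7), and between OvP and OvW 1 gene sum (against 5) and 2 copies (against 6). At coefficients of 0.1 and 0.2 and with Benjamini-Hochberg adjusted p, which change p alone, all 53 single folds kept their side of the threshold. With DESeq2 size factors, which change the folds as well, all 53 kept their direction and their side. A minimum of 10 reads changes neither the fold nor the p of a gene, so it could not move these folds. With total reads the median log2 fold of the copies between M4 and H3 turned to 0.17, against -0.21, while the all-gene median moved to 0.43, against 0.05, and *CCoAOMT1* stood at 1.09 times (Bra034600 1.21) and *CSE* at 1.25 times (Bra018986 1.25, Bra030364 1.13), above 1 in place of below 1. *C3H1* was then called, at 2.05 times, as were its copies Bra016964 (2.21) and Bra004591 (6.89). The deposited RPKM gave 1.09 for *CCoAOMT1* (Bra034600 1.20) and 1.23 for *CSE* (Bra018986 1.23, Bra030364 1.11). These turns follow from the scaling itself. With only the copy with the most reads, *HCT* was no longer called between M4 and H3 (1.50 times), *UGT84A2* was (0.405 times), and *F5H1* was no longer called between OvP and OvW (0.466 times). These changes follow from leaving out the reads of the other copies. Those were Bra033526 of *HCT* (256 in M4 and 24 in H3), Bra023872 of *UGT84A2* (84 in M4 and 2 in H3) and, among others, Bra011671 of *F5H1* (1 in OvP and 17 in OvW). Why the copies differ was not tested. The number of copies whose folds differed between the pairs was 9 with TMM, 12 with total reads and 10 with DESeq2 size factors. Alternatives for the other lists were added after the data had been seen. With a coefficient of 0.4, the called copies between M4 and H3 were 2 of general phenylpropanoid genes (against 11), 1 of monolignol genes (3), 4 of the other transferases (7), 1 of amide genes (2), 6 of the S-adenosylmethionine cycle (16) and 2 of regulators (9). Between OvP and OvW they were 3 (11), 3 (10), 1 (3), 0 (0), 0 (3) and 0 (5) in the same order. At 0.2 the transferases between OvP and OvW fell to 1 and the regulators to 1, and with total reads those regulators to 3. No paired analysis was possible because each material had 1 library, and for the same reason none could be left out in turn. In OvP the floor of 3 reads stands at 1.62 CPM (reads scaled to the library total), against 0.182 CPM in H3, which limits low copies such as those of *F5H1*.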

Other observations

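Regulators of phenylpropanoid genes were called in both directions in M4, with 5 copies higher and 4 lower of 25, near the 16.2% and 12.7% of all Bra genes. With total reads 8 were higher and 4 lower, where 22.9% of all Bra genes were higher and 7.98% lower. In OvP 0 copies rose and 5 of 25 fell, against 5.60% and 5.76% of all Bra genes. That count was 3 with total reads, 1 at an assumed coefficient of variation of 0.2 and 0 at 0.4. Bra033572, a copy of *MYB4*, a repressor of hydroxycinnamate genes in Arabidopsis, rose in M4, with 120 reads in M4 and 19 in H3 (5.13 times, 3.15 to 8.82). It fell in OvP, with 62 reads in OvP and 247 in OvW (0.261 times, 0.194 to 0.346). In M4 it was a minor copy, at 8.41 RPKM against 89.7 for Bra010736. The summed reads of *MYB4* were 1351 in M4 and 760 in H3, which at 1.44 times is below the threshold. In OvP and OvW they were 67 and 267 (0.261 times). Bra013055, a copy of the related *MYB7*, had 1064 reads in M4 and 3638 in H3 (0.238 times). Of the 2 *KFB01* copies named by the rule, which belong to the F-box genes that in Arabidopsis mark phenylalanine ammonia lyase for turnover, Bra026753 rose, with 406 reads in M4 and 122 in H3 (2.70 times), and Bra026116 fell, with 870 reads in M4 and 3561 in H3 (0.199 times).

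Hydroxycinnamoyl amide genes were scarcely expressed apart from *SDT* (spermidine disinapoyl transferase), whose summed RPKM was 24.1 in M4 and 39.1 in H3, and 0.52 in OvP and 1.18 in OvW. Of 11 copies tested between M4 and H3, 0 rose and 2 fell (16.2% and 12.7% of all Bra genes), among them the *SDT* copy Bra039202 with 43 reads in M4 and 241 in H3 (0.145 times, 0.102 to 0.201). Between OvP and OvW edgeR's exact binomial test called 0 of 12 copies, all of which had fewer than 10 reads over the pair.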
